A study of Mus musculus with 7 samples.

Results

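Trans-synaptic adhesion molecules are the membrane and secreted proteins through which a presynaptic and a postsynaptic membrane recognise each other across the synaptic cleft. The 36 genes examined here were chosen as a list by function, by a rule that uses no measured value but with earlier results of these data known, and 36 of 36 were found by symbol among the 19257 genes of the table of normalized read counts. They comprised 2 neurexins, 8 postsynaptic ligands of neurexins (neuroligins, LRRTM proteins and calsyntenins), 3 cerebellins, 11 ligands of the LAR-type receptor tyrosine phosphatases (Slitrk, Lrfn and Il1rapl1), 5 netrin-G proteins and netrin-G ligands, 4 SynCAM proteins and 3 FLRT proteins. Neurexins sit on the axon terminal and are expressed from alternative promoters and with extensive alternative splicing, which sets the ligands they can bind. Neuroligins, LRRTMs and cerebellins meet them on the other side of the cleft, while the phosphatases Ptprd, Ptprf and Ptprs form a second presynaptic hub for Slitrk and Lrfn proteins. Most of these genes are known from neurons, but several, Nlgn3 and Cadm4 among them, are also made by cells of the oligodendrocyte lineage, and Nlgn3 shed into the extracellular space is known to promote glioma growth.

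Bulk RNA-Seq of tumor-bearing brain was available for 7 mice, 1 library per brain, with 3 tumors in the 3xCR group and 4 in the GPC6 group. Both groups carried the same construct with Cas9 and CRISPR guides against 3 tumor suppressors, Trp53 and Nf1 among them, delivered by in utero electroporation into progenitors lining the lateral ventricles of mice on CD-1 and C57BL/6 backgrounds. A piggyBac transposon labelled the cells with GFP and, in the GPC6 group, also drove overexpression of glypican 6, a heparan sulfate proteoglycan of the cell surface known as a synapse-promoting factor of astrocytes. Tumor tissue was collected at endpoint under a fluorescence microscope. Each library is from bulk tissue, and the proportion of tumor cells and of other brain cells in it was not measured. Mice of either sex entered the study, and the age and strain behind each library are not given in the sources used here. The comparison asks which of these genes differed in level between tumors with and without added GPC6.

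The libraries held 7197692 to 18879762 reads on genes, and depth did not differ detectably between the groups (two-sided exact permutation test, p = 0.457, where 0.057 is the smallest p possible with 3 against 4). The normalized count of Gpc6 itself was 217, 226 and 126 in the 3xCR tumors, replicates 2 to 4, against 675, 263, 3434 and 5084 in GPC6 replicates 1 to 4 (all later values are given in this order). The library labelled GPC6 replicate 2 was therefore close to the 3xCR tumors for the overexpressed gene, and it is called GPC6 replicate 2 below by its label only. GPC6 replicate 1 also stood apart. It had the lowest depth and the highest summed level of 15 pan-neuronal markers, at 81785 against 10746 to 17440 in the 3xCR tumors and 14407, 47488 and 19060 in GPC6 replicates 2 to 4, and no marker of that list was at 0 in any library. The 6 markers of oligodendrocyte precursors, a cell type that many gliomas resemble, summed to 15737 to 53654 in 3xCR tumors and to 14116, 74713, 25814 and 31447 in GPC6 replicates 1 to 4. Markers of particular brain regions were also highest in GPC6 replicate 1. The hypothalamic hormones Avp and Oxt were at 541 and 428 there and at most at 7.10 and 2.66 in the other libraries, and Ttr, of the choroid plexus, was at 11813 against 10.9 to 3240. The score of 6 striatal markers was 3.21 there and -2.45 to 1.45 elsewhere. Their part in the results on the members was not tested.

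Of the 36 members, 34 (94.4%) had a higher mean log2 level in GPC6 than in 3xCR tumors, against 48.3% of the 14782 genes tested. The median log2 fold change of the members was 0.60, and that of all genes tested was -0.02. Most lists of neuronal markers were higher as well and by more, with 15 of 15 pan-neuronal markers (median log2 fold change 1.30), 6 of 6 of excitatory neurons (2.20) and 6 of 6 of inhibitory neurons (2.38). The thalamic list was not, with 3 of 5 higher (0.015). GPC6 replicate 2 lay within the 3xCR range for the summed excitatory (543 against 119 to 3183) and inhibitory markers (1044 against 291 to 1574). Of oligodendrocyte and microglial markers, 0 of 6 each were higher (-0.76 and -0.54). The part of these cell types in the members' difference was not tested. A log2 fold change of at least 1 was reached by 15 members (41.7%) and by 8.15% of all genes. None of these differences passed the test across all genes, since the smallest Benjamini-Hochberg adjusted p of a member in limma was 0.730 and 0 members and 0 of 14782 genes (0%) had an adjusted p under 0.05. At an unadjusted p under 0.05 there were 7 members (19.4%), with Lrfn5, Clstn3, Lrfn2, Slitrk3, Cbln1, Cbln2 and Nlgn1 each higher in GPC6, against 4.66% of all genes in either direction and 2.74% in that direction. On the recovered reads, 4 members reached an unadjusted p under 0.05 in the edgeR quasi-likelihood test (6.7% of all genes did) and 11 in the Wald test of DESeq2 (9.77% of 18973 genes). In bulk tissue, fewer cells of a type and less RNA per cell cannot be told apart, and this holds for every value below.

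The groups overlapped for 34 of the 36 members. The exceptions were Cbln1 and Lrfn5, 5.56% of the members, whose 4 GPC6 tumors each lay above the 3 3xCR tumors, while 6.32% of all genes did not overlap in either direction and 2.8% lay higher in GPC6. The size of the log2 fold change was below its standard error for 14 members and above 2 standard errors for 10. Without 3xCR replicate 4, which held the lowest value of 26 of the 36 members, 0 members and 0.819% of all genes reached an unadjusted p under 0.05 in limma. Without 3xCR replicate 2, the highest 3xCR tumor for 31 members, 12 members and 7.67% of all genes did. With any 1 library left out, 32 to 36 members were higher in GPC6, and the median log2 fold change ran from 0.38 to 1.05. Without GPC6 replicate 1, 32 were higher with a median of 0.49 and 2 members at an unadjusted p under 0.05 in limma (3.17% of all genes). Without GPC6 replicate 2, 33 were higher with a median of 0.66 and 6 such members (9.46% of all genes).

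**Figure D1:**
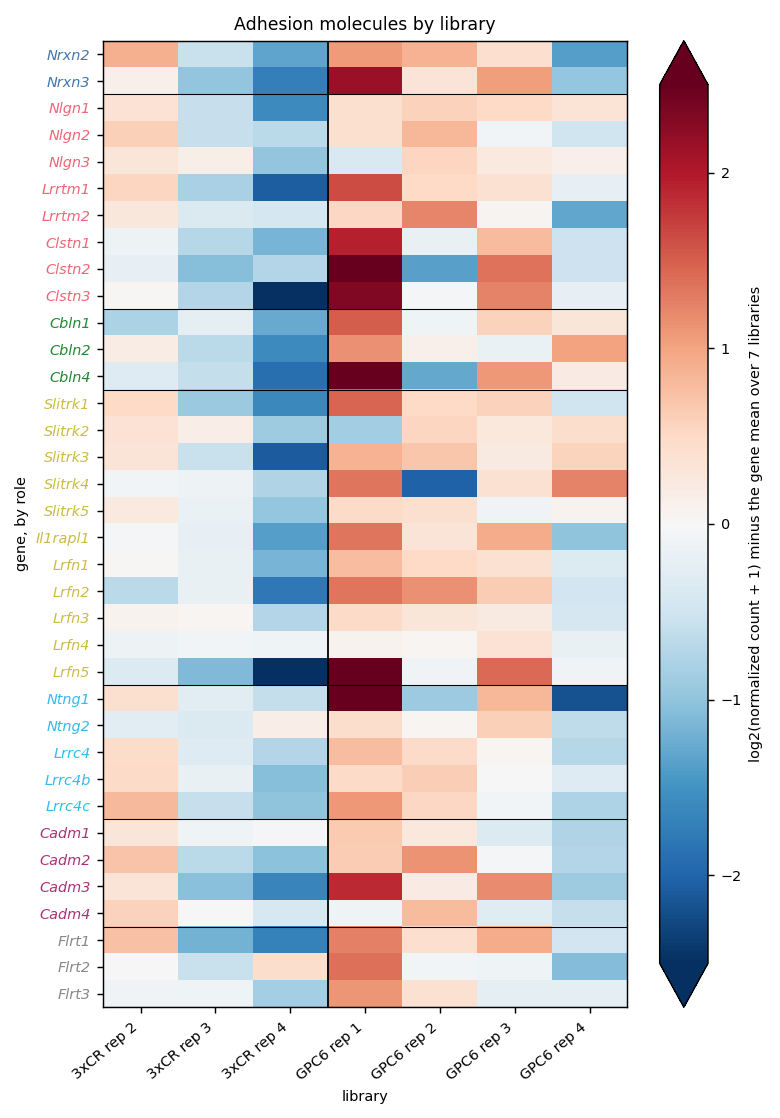
Each column is 1 library and each row 1 of the 36 members, grouped by role, and the colour gives log2(normalized count + 1) minus the mean of that gene over the 7 libraries, with the darkest colours also holding values beyond the scale. GPC6 replicate 1 holds the highest value of 26 members and 3xCR replicate 4 the lowest value of 26 members, while GPC6 replicate 4 lies below 3xCR replicate 2 for 28 members.

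**Figure D2:**
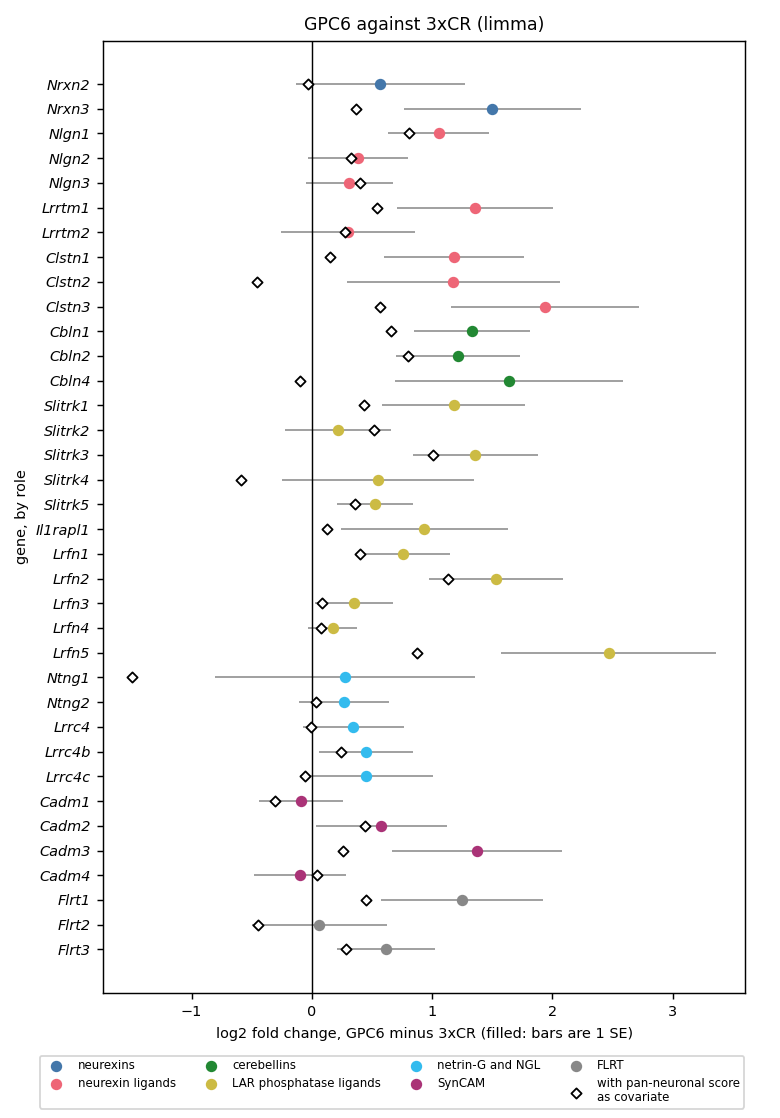
The log2 fold change of GPC6 over 3xCR tumors is shown for each member with 1 standard error from limma (filled points), next to the value from a fit with the pan-neuronal marker score as a covariate (open diamonds). Of the 36 filled points 34 lie above 0, against 48.3% of all genes tested. Of the 36 diamonds, 33 lie below their filled point, a count not made over all genes.

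The sequence upstream of the transcription start is shown for 4 members whose levels frame the comparison. Lrfn5 and Clstn3 had the largest log2 fold changes and were highest in GPC6 replicate 1, whereas Nlgn2 and Cadm4 had differences below their standard errors and were highest in GPC6 replicate 2. Each run gives the 250 bases before the start in RefSeq on GRCm38, on the strand of the gene and 5′ to 3′, with each GC box (GGGCGG on either strand, a common element of promoters without a TATA box) in capitals. Lrfn5 lies at chr12:61522917-61523166 on the plus strand, Clstn3 at chr6:124464785-124465034 on the minus strand, Nlgn2 at chr11:69837785-69838034 on the minus strand and Cadm4 at chr7:24481773-24482022 on the plus strand.
Lrfn5: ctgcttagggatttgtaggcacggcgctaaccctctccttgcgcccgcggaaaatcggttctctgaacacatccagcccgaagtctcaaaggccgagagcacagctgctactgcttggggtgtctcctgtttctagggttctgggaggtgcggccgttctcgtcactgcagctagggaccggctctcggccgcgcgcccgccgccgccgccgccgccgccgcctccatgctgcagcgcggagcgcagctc
Clstn3: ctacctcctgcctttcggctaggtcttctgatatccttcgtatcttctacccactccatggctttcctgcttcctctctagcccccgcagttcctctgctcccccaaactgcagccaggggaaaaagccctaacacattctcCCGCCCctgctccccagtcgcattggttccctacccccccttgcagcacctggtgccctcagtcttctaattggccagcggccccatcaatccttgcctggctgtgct
Nlgn2: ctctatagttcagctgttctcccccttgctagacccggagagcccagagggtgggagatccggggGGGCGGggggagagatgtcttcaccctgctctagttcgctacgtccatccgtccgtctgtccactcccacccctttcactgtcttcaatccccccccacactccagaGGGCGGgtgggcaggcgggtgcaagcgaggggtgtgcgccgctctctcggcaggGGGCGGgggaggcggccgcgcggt
Cadm4: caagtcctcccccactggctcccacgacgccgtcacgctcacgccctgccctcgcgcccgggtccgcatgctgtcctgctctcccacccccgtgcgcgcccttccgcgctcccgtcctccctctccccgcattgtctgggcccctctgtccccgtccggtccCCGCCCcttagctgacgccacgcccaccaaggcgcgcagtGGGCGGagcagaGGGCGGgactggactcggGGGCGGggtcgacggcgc
In this window Lrfn5 held no GC box in these letters, Clstn3 held 1, Nlgn2 held 3 and Cadm4 held 4. A promoter entry was found for 26 of the 36 members. The GC box was present in 9 of these (34.6%) and in 32.7% of all 32851 promoters, and the CCAAT box (CCAAT on either strand) in 9 (34.6%) and 33.9%. The TATA box letters TATAAA were in 0 of the 26 windows and in 12.4% of all, the cAMP response element TGACGTCA in 1 (3.85%) and 1.55%, and the E-box CACGTG in 3 (11.5%) and 6.02%. The median GC content was 59.6% for members and 52.4% for all promoters, with a median of 9.5 and 6 CpG dinucleotides. The 4 sequences shown were picked with their levels known, and other members had other counts of the GC box. Slitrk2 also had a difference below its standard error (0.21, SE 0.44) and was highest in GPC6 replicate 2, but is not shown. Among members highest in GPC6 replicate 1, Clstn1 held 3, Cbln4 held 2, and Slitrk5, Ntng1 and Clstn3 held 1 each. The others of these with an entry held 0. Among members highest in GPC6 replicate 2, Cadm2 held 1, and Nlgn1, Slitrk2 and Lrrc4b held 0. These matches describe letters in a window, and a link with the expression values was not tested.

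Both neurexins had a higher mean in GPC6, with neither reaching an unadjusted p under 0.05. Nrxn2 (chr19:6418731-6544169, plus strand), the neurexin of higher level per kb of exon, was at 3244, 1192 and 698 normalized counts in the 3xCR tumors and at 3660, 3179, 2348 and 668 in the GPC6 tumors. The lowest value thus came from a GPC6 tumor and the groups overlapped, with means of 1711 ± 1350 (SD, n = 3) and 2464 ± 1314 (SD, n = 4) and a log2 fold change of 0.57 (SE 0.70, adjusted p = 0.821 in limma). That value was 0.30 without GPC6 replicate 1, 0.36 without GPC6 replicate 2, 0.072 without 3xCR replicate 4 and 1.18 without 3xCR replicate 2. Nrxn3 was at 318, 148 and 88.4 against 1311, 367, 607 and 150, a log2 fold change of 1.50 (SE 0.74), and of 1.00 without GPC6 replicate 1. It supplied 11.3% ± 1.37 of the length-corrected level of the pair in 3xCR and 20.3% ± 7.02 in GPC6 tumors, where GPC6 replicates 1, 3 and 4 were at 28.2%, 22.1% and 19.8% and GPC6 replicate 2, at 11.2%, fell within the 3xCR range of 9.71% to 12.2%.

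The 8 postsynaptic ligands of neurexins were each higher in GPC6 on the mean, with a median log2 fold change of 1.11 and a range of 0.30 to 1.94. Calsyntenins, cadherin-type proteins that also act in axonal transport, held the largest of these differences. Clstn3 (chr6:124430759-124464794, minus strand), a postsynaptic organiser of excitatory and inhibitory synapses, had normalized counts of 761, 444 and 120 in the 3xCR tumors and of 3685, 732, 1756 and 645 in the GPC6 tumors. GPC6 replicates 1 and 3 were the highest and the other GPC6 tumors fell between 3xCR replicates 2 and 3, so the groups overlapped. Its log2 fold change was 1.94 (SE 0.78, unadjusted p = 0.039 and adjusted p = 0.730 in limma), 1.45 without GPC6 replicate 1, 1.18 without 3xCR replicate 4 (unadjusted p = 0.151) and 2.51 without 3xCR replicate 2. Clstn1 (chr4:149586468-149648899, plus strand), best known as an adaptor that links cargo to kinesin, had the highest level per kb in this role. It was at 3577, 2386 and 1746 in 3xCR and at 15045, 3472, 6796 and 2735 in GPC6 tumors, a log2 fold change of 1.18 (SE 0.59, adjusted p = 0.730). Leaving out GPC6 replicate 1 lowered it to 0.70. Clstn2 was the calsyntenin of lowest level and its lowest value, 32.6, came from GPC6 replicate 2.

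The neuroligins differed from the calsyntenins in which library was highest. Nlgn1 (chr3:25426215-26332460, minus strand), the neuroligin of excitatory synapses, had normalized counts of 602, 313 and 153 in the 3xCR tumors and of 617, 693, 657 and 593 in the GPC6 tumors. The 4 GPC6 values lay within a narrow band (640 ± 44.2, SD, n = 4). GPC6 replicates 1, 2 and 3 were above the highest 3xCR tumor and replicate 4 was just below it. The log2 fold change was 1.05 (SE 0.42, unadjusted p = 0.036 and adjusted p = 0.730 in limma). Leaving out GPC6 replicate 1 gave 1.07 and leaving out replicate 2 gave 1.01, but without 3xCR replicate 4 it was 0.55 (unadjusted p = 0.112) and without 3xCR replicate 2 it was 1.54. Nlgn2, of inhibitory synapses, and Nlgn3, found at both kinds, had log2 fold changes of 0.38 and 0.31, each below its standard error. Nlgn3 was at 944, 849 and 390 in 3xCR and at 589, 1111, 915 and 841 in GPC6 tumors. Its values were lowest in 3xCR replicate 4 and next lowest in GPC6 replicate 1, and the groups overlapped. All 3 neuroligins were highest in GPC6 replicate 2. The leucine-rich repeat proteins Lrrtm1 and Lrrtm2, ligands of neurexins at excitatory synapses, had log2 fold changes of 1.35 (SE 0.65) and 0.30 (SE 0.56). Lrrtm2 was lowest in a GPC6 tumor, replicate 4, and its value turned to -0.066 without GPC6 replicate 2.

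Cerebellins are small secreted proteins of the C1q family, of which Cbln1 is known to bridge neurexins to delta glutamate receptors. All 3 had a log2 fold change above 1. Cbln1 (chr8:87468405-87472609, minus strand), the form known from cerebellar granule cells, had normalized counts of 31.2, 46.5 and 22.1 in 3xCR and of 158, 50.4, 81.6 and 67.9 in GPC6 tumors. Every GPC6 tumor was above every 3xCR tumor, although GPC6 replicate 2 exceeded 3xCR replicate 3 only narrowly. The log2 fold change was 1.33 (SE 0.48, unadjusted p = 0.025 and adjusted p = 0.730 in limma). Cbln2 (chr18:86711110-86718283, plus strand), of the forebrain, was at 135, 74.4 and 38.7 in 3xCR and at 263, 130, 106 and 239 in GPC6 tumors. GPC6 replicates 1 and 4 were highest, the other pair fell below 3xCR replicate 2, and the log2 fold change was 1.22 (SE 0.51, unadjusted p = 0.046 and adjusted p = 0.730), or 0.77 without 3xCR replicate 4. Cbln4 was the least expressed per kb, at 5.52 to 18.1 in 3xCR and at 167, 8.89, 49.7 and 26.7 in GPC6 tumors. Its log2 fold change of 1.64 (SE 0.95) dropped to 0.94 without GPC6 replicate 1 and reached 2.30 without GPC6 replicate 2.

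All 11 ligands of the receptor tyrosine phosphatases had a higher mean in GPC6, with a median log2 fold change of 0.76 and a range of 0.17 to 2.47. Lrfn5 (chr12:61523150-61858342, plus strand), also called SALM5, an organiser of presynaptic contacts through LAR-type phosphatases, had the largest log2 fold change of the 36 members. Its normalized counts were 42.2, 24.2 and 6.91 in 3xCR and 430, 50.4, 145 and 50.4 in GPC6 tumors. The 4 GPC6 tumors lay above the 3xCR tumors, GPC6 replicate 1 far above and replicates 2 and 4 only just, and the log2 fold change was 2.47 (SE 0.89, unadjusted p = 0.025 and adjusted p = 0.730 in limma). Leaving out GPC6 replicate 1 gave 1.83, and leaving out replicate 2 gave 2.85. Its share of the length-corrected Lrfn total was 0.39% to 1.69% in 3xCR and 10.4%, 1.49%, 4.17% and 2.35% in GPC6 tumors.

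Lrfn2 (chr17:48932379-49097588, plus strand), or SALM1, which binds PSD-95 and NMDA receptors, had normalized counts of 58.1, 81.9 and 26.2 in 3xCR and of 236, 205, 145 and 65.8 in GPC6 tumors. GPC6 replicates 1, 2 and 3 exceeded the 3xCR tumors and replicate 4 lay among them, with a log2 fold change of 1.53 (SE 0.56, unadjusted p = 0.026 and adjusted p = 0.730 in limma). GPC6 replicate 2 was thus high for Lrfn2 but close to the 3xCR tumors for Lrfn5. Lrfn4 (chr19:4611785-4615667, minus strand), or SALM3, had the highest level per kb of the phosphatase ligands and the narrowest spread, at 364, 380 and 366 in 3xCR and at 420, 409, 507 and 348 in GPC6 tumors. Its log2 fold change was 0.17 (SE 0.21, adjusted p = 0.815). Lrfn1 and Lrfn3 had log2 fold changes of 0.76 and 0.35.

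Slitrk proteins are leucine-rich repeat ligands of the phosphatases, and Slitrk3 (chr3:73047265-73057803, minus strand) is known to organise inhibitory synapses through Ptprd. It had normalized counts of 346, 189 and 64.9 in 3xCR and of 507, 450, 327 and 409 in GPC6 tumors, where only GPC6 replicate 3 fell below a 3xCR tumor. The log2 fold change was 1.36 (SE 0.52, unadjusted p = 0.031 and adjusted p = 0.730 in limma). It was 1.27 without GPC6 replicate 1 and 1.33 without replicate 2, but 0.71 without 3xCR replicate 4 (unadjusted p = 0.074) and 1.91 without 3xCR replicate 2. Slitrk1 had a log2 fold change of 1.18 and Slitrk5 one of 0.52. Slitrk4 was at 44.2 to 71.8 in 3xCR and at 192, 17.8, 97.6 and 179 in GPC6 tumors, so that leaving out GPC6 replicate 2 raised its log2 fold change from 0.55 to 1.30. Slitrk2 showed the reverse arrangement, with 198 in GPC6 replicate 1 and 436 to 528 in the other GPC6 tumors against 196 to 465 in 3xCR, and its log2 fold change went from 0.21 to 0.54 without GPC6 replicate 1. Il1rapl1, a ligand of Ptprd encoded on the X chromosome, had the lowest level per kb of all members, at 6.91 to 19.2 and 9.26 to 51.0.

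The netrin-G system had log2 fold changes of 0.27 to 0.45 over 5 members, and none reached an unadjusted p under 0.05. Lrrc4b (chr7:44429018-44463351, plus strand), or NGL-3, a postsynaptic protein that binds LAR-type phosphatases rather than netrin-G proteins, was the most abundant per kb. It had normalized counts of 1970, 1234 and 678 in 3xCR and of 1966, 2152, 1418 and 1135 in GPC6 tumors, and the groups overlapped. Its log2 fold change was 0.45 (SE 0.39, adjusted p = 0.756 in limma), and 0.051 without 3xCR replicate 4. Lrrc4 and Lrrc4c, the ligands of Ntng2 and Ntng1, had log2 fold changes of 0.34 and 0.45, or 0.13 and 0.15 without GPC6 replicate 1. Ntng1, an axonal protein known from thalamic projection neurons, had the widest spread of the role. It was at 48.2, 29.8 and 23.5 in 3xCR and at 249, 18.8, 64.8 and 7.20 in GPC6 tumors, so GPC6 tumors held both the highest and the lowest values. Its log2 fold change of 0.28 (SE 1.08) became -0.60 without GPC6 replicate 1 and was 1.30 in edgeR.

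SynCAM proteins are immunoglobulin-type molecules that pair with each other across the cleft, and this role held both members with a lower mean log2 level in GPC6. Cadm4 (chr7:24482023-24504539, plus strand), which is also known from myelinating glia, had the highest level per kb of all 36 members. Its normalized counts were 6244, 4177 and 3152 in 3xCR and 3907, 7285, 3407 and 2805 in GPC6 tumors. The highest and the lowest value both came from GPC6 tumors, and the log2 fold change was -0.10 (SE 0.38, adjusted p = 0.948 in limma). That sign turned to 0.16 without 3xCR replicate 2 and to 0.08 without GPC6 replicate 4. Cadm1 was at -0.09 (SE 0.35) and at 0.00 in DESeq2. Cadm3, a SynCAM known from neurons, was at 1370, 530 and 347 in 3xCR and at 3961, 1247, 2457 and 591 in GPC6 tumors, a log2 fold change of 1.37 (SE 0.70, adjusted p = 0.730). Cadm2 had one of 0.58 and was highest in GPC6 replicate 2.

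FLRT proteins bind presynaptic latrophilins and also the guidance receptors of the Unc5 family. Flrt3 (chr2:140650914-140671469, minus strand), the most abundant of the 3 per kb, had normalized counts of 144, 143 and 84.3 in 3xCR and of 331, 202, 132 and 132 in GPC6 tumors. GPC6 replicates 1 and 2 were above the 3xCR tumors and replicates 3 and 4 lay within their range, with a log2 fold change of 0.62 (SE 0.40, adjusted p = 0.730 in limma) that was 0.34 without GPC6 replicate 1. Flrt1 had a log2 fold change of 1.25 (SE 0.67). Flrt2 had one of 0.06 (SE 0.56), and of -0.39 without GPC6 replicate 1.

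**Figure D3:**
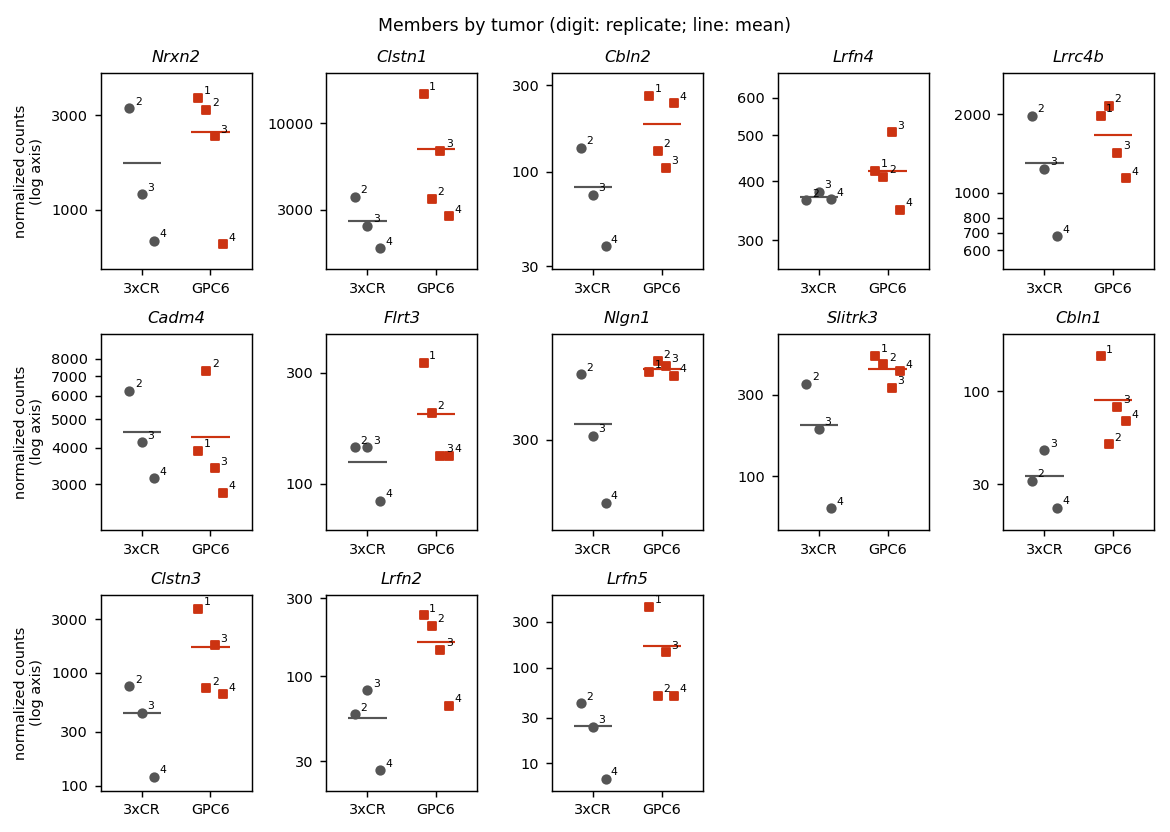
Normalized counts on a log axis are shown for the 13 members named with every library, where each digit is the replicate number of 1 tumor and each line the arithmetic group mean. Cbln1 and Lrfn5 show no overlap of the groups, the 4 GPC6 tumors lie close together for Nlgn1 at 593 to 693, and Cadm4 has its highest value, 7285, and its lowest, 2805, in GPC6 tumors.

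The members fell into distinct patterns by library. GPC6 replicate 1 held the highest value of 26 members, 72.2% of them, and of 31.3% of all genes tested. GPC6 replicate 2 held the highest value of 8 members, Nlgn1, Nlgn2, Nlgn3, Lrrtm2, Slitrk2, Lrrc4b, Cadm2 and Cadm4, and of 12.2% of all genes. The remaining 2, Ntng2 and Lrfn4, were highest in GPC6 replicate 3, and no member was highest in a 3xCR tumor. At the lower end, 3xCR replicate 4 held the lowest value of 26 members and of 22.2% of all genes, GPC6 replicate 4 that of 8 and GPC6 replicate 2 that of Slitrk4 and Clstn2. Scores of the marker lists in the same libraries are given next, and their part in these orders was not tested. GPC6 replicate 1, highest for the calsyntenins, cerebellins, Nrxn3, Cadm3 and Lrfn5, had the highest pan-neuronal score (2.01, the mean log2 level of the 15 markers relative to the average library) and a low score for oligodendrocyte precursors (-1.07). GPC6 replicate 2, highest for the neuroligins and Cadm4, had a pan-neuronal score of -0.95 and the highest precursor score (1.30). The score of mature oligodendrocyte markers was high in both, at 1.11 and 0.92. The members' median log2 level relative to the average library was 0.26, -0.46 and -1.04 in the 3xCR tumors. It was 1.10, 0.40, 0.37 and -0.48 in the GPC6 tumors. GPC6 replicate 2 was thus close to replicate 3 for the members, although the pan-neuronal score of replicate 3 was 1.29. The lowest pan-neuronal score, -1.48, belonged to 3xCR replicate 4.

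**Figure D4:**
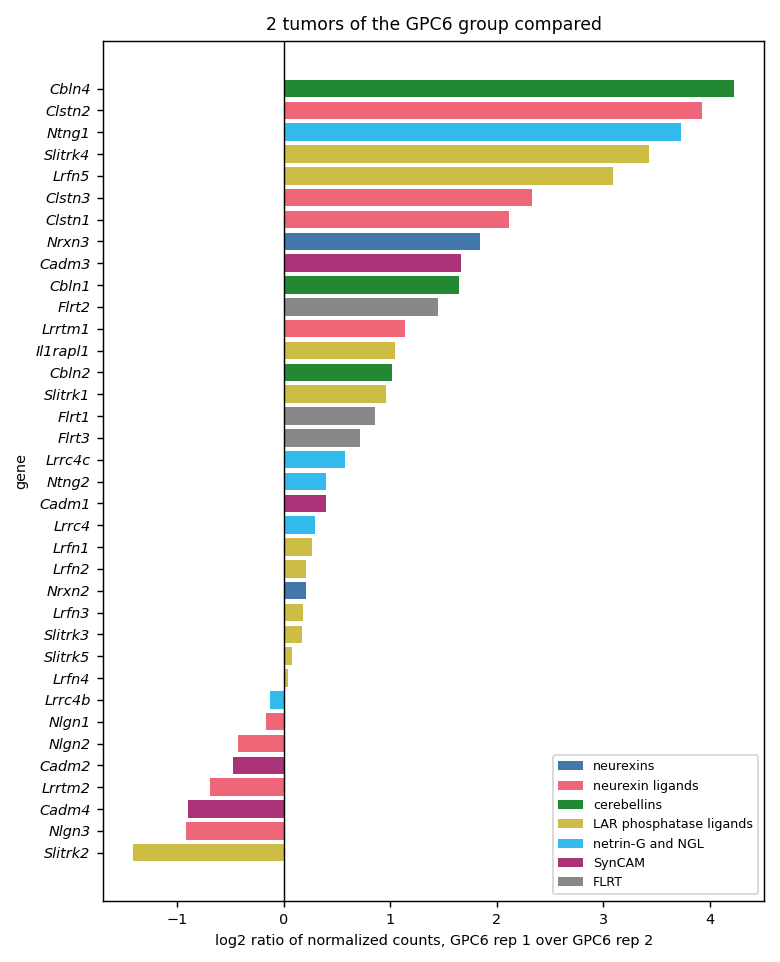
The bars give, for each member, the log2 ratio of the normalized count in GPC6 replicate 1 over that in GPC6 replicate 2, on 1 library each and so without error. The ratio is above 0 for 28 members and below 0 for the other 8, which are the members with their highest value in GPC6 replicate 2.

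With the pan-neuronal score as a covariate, the median log2 fold change of the members was 0.28 in place of 0.60, 27 were higher and 9 lower in GPC6, and 0 reached an unadjusted p under 0.05 in limma (2.11% of all genes did). The log2 fold change was lower in that fit for 33 of 36 members. Neither this count nor that of higher members was made over all genes, whose median was 0.01 with the covariate and -0.02 without. The score was built from markers of which 15 of 15 were higher in GPC6. The reduction was large for Clstn1 (1.18 to 0.15), Clstn3 (1.94 to 0.56), Lrfn5 (2.47 to 0.87), Cbln4 (1.64 to -0.10) and Cadm3 (1.37 to 0.26). It was smaller for Nlgn1 (1.05 to 0.81), Slitrk3 (1.36 to 1.01) and Lrfn2 (1.53 to 1.14). With 7 libraries the score and the group could be separated only in part, and whether the amount of neuronal RNA accounts for the difference between the groups was not tested.

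Within families, levels per kb of exon were compared as shares of the family total. Nlgn2 supplied most of the neuroligin total, 74.3% ± 7.29 (SD, n = 3) in 3xCR and 72.3% ± 7.65 (SD, n = 4) in GPC6 tumors, and Nlgn3 followed with 19.6% ± 6.48 and 18.3% ± 5.68. Nlgn1 made up 6.07% ± 1.47 and 9.42% ± 2.26. Lrrc4b likewise made up 65.1% ± 3.74 and 66.0% ± 5.63 of the netrin-G ligands. The shares of Nlgn2, Nlgn3 and Lrrc4b differed between groups by less than the spread between tumors, and that of Nlgn1 by more than either SD, although GPC6 replicate 2 (6.80%) lay within the 3xCR range of 4.37% to 6.93%. Cadm4 supplied 87.7% to 90.9% of the SynCAM total in 3xCR tumors and 69.7%, 88.9%, 77.0% and 88.3% in GPC6 tumors, where Cadm3 made up 21.1% in replicate 1 and 16.6% in replicate 3 and 2.95% to 5.74% elsewhere. Of 31 shares, 2 (6.45%) did not overlap between the groups, those of Slitrk3 and Clstn3. That is near the 6.32% of all genes, but the latter refers to levels of single genes. Shares within a family depend on each other, and no such proportion was computed for shares over all genes. The Slitrk3 share of the Slitrk total was 12.9% to 23.3% in 3xCR and 23.8% to 28.6% in GPC6 tumors. The Clstn3 share of the calsyntenins was 16.4%, 14.7% and 5.93% in 3xCR and 18.3%, 16.4%, 19.1% and 17.9% in GPC6 tumors, so 3xCR replicate 2 and GPC6 replicate 2 were equal at this precision. Among cerebellins, Cbln2 was the leading form in each library, with 63.0% ± 9.64 and 58.2% ± 14.8.

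**Figure D5:**
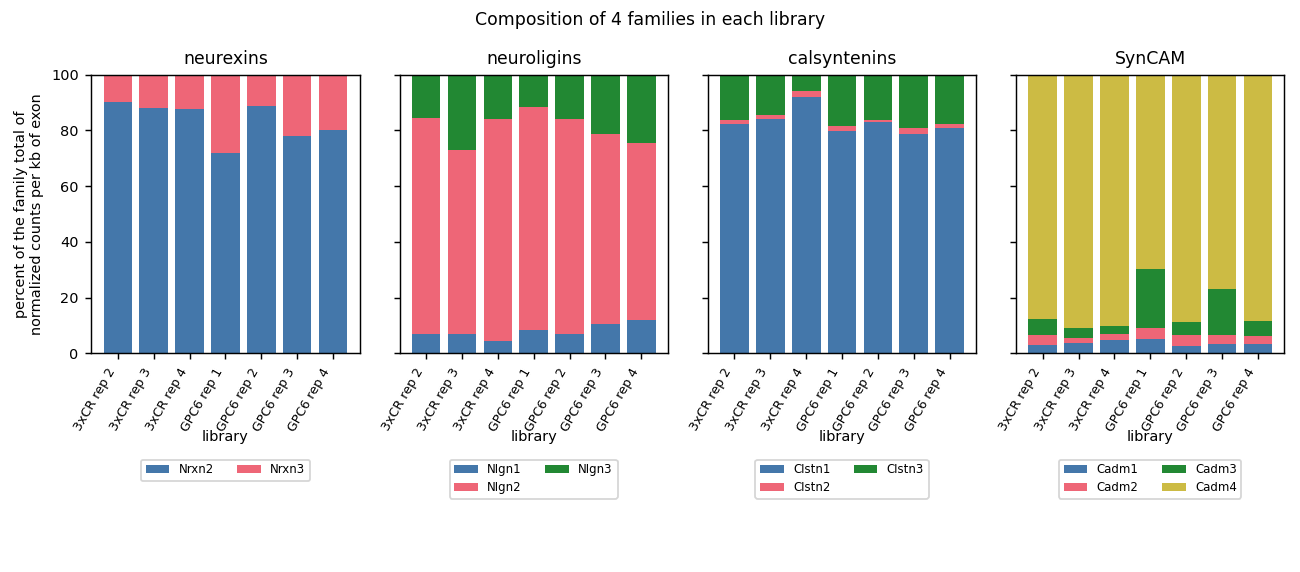
Stacked bars give the percent of each family's summed normalized count per kb of exon that each gene supplied, for Nrxn2 and Nrxn3, neuroligins, calsyntenins and SynCAM proteins in each of the 7 libraries. Nrxn2, Nlgn2, Clstn1 and Cadm4 lead in every library, and the shares of Nrxn3 and Cadm3 are largest in GPC6 replicate 1, at 28.2% and 21.1%.

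The binding partners and scaffolds of these molecules were read from a list of 35 further genes, of which 34 were tested and Il1rapl2 was below the minimum level. Of the 34, 30 were higher and 4 lower in GPC6, with a median log2 fold change of 0.63, 10 at a log2 fold change of at least 1 and 0 at an unadjusted p under 0.05 in limma, against 4.66% of all genes. With edgeR 3 reached that value, against 6.7% of all genes, and with DESeq2 8, against 9.77% of all genes. Of the 34, 1 (2.94%) had groups that did not overlap, against 6.32% of all genes, namely the presynaptic phosphatase Ptprs. It was at 2804, 2805 and 1840 in 3xCR and at 3450, 2892, 3397 and 3871 in GPC6 tumors, a log2 fold change of 0.47 (SE 0.23, adjusted p = 0.730). Ptprd and Ptprf had log2 fold changes of 0.85 and 0.38, and the latrophilins Adgrl1, Adgrl2 and Adgrl3, receptors of the FLRT proteins, had 0.77, 0.38 and 0.43.

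Depth limited the weakly expressed members. The fewest reads behind a value were 4, and 12 members had under 50 reads in at least 1 library. A count of 0 would allow up to 1.64 to 4.64 normalized counts depending on the library. Several members share sequence with other genes in the GENCODE annotation. Of the exon bases of Nlgn3, 41.2% are shared with Gm21986 on the same strand, and of those of Ntng2, 14.0% with 6530402F18Rik. On the opposite strand, Nlgn1 shares 9.16% of its exon bases with A830092H15Rik and Nrxn2 4.94% with Slc22a12. Lrrtm1, Lrrtm2, Lrrc4, Lrfn1, Lrfn4, Flrt1, Flrt3 and Cbln1 lie inside genes on the opposite strand. Of these, only Lrrtm2 shares exon bases with the enclosing gene (1.58%). The strand rule used in counting is not given in the sources used here. Reads from shared exon bases could therefore not be separated with certainty from those of the overlapping genes.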

How the data were processed

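Endpoint tumor tissue of 3 3xCR and 4 GPC6 mice was studied by bulk RNA-Seq, with groups and replicate numbers (2 to 4 and 1 to 4) taken from the sample labels. According to the study's methods, libraries were made with a stranded mRNA kit. Per the submitters' processing notes, reads were aligned to mm10 with STAR 2.5.0a and normalized with DESeq2 1.20.0. The deposited values are a normalized signal per gene, read counts that the authors divided by a size factor per library, with no correction for gene length. The table held 19282 entries, of which 25 with names turned into dates were left out (0.254% to 0.361% of the reads of a library). Whole reads were recovered from the value of 1 read in each library, and 100% of values came within 0.01 of a whole number.

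Normalized counts were transformed as log2(value + 1) and compared with limma 3.58.1 (R 4.3.3), fitted with a variance trend over 14782 genes with a mean of at least 10, two-sided, with Benjamini-Hochberg adjustment over all genes. Log2 fold changes are on that scale, which understates the change of low genes. Alternatives were edgeR 4.0.16, DESeq2 1.42.0 and voom on the recovered reads, pseudocounts of 0.5 and 5, no filter or a mean of at least 50, other scalings and variance models, library weights, a replicate block, the pan-neuronal score as a covariate, and leaving out libraries. The scripts were tested on simulated data. Levels per kb used exon lengths of GENCODE M21 on GRCm38, to which 96.0% of genes matched by symbol. The members, roles and lists were chosen with earlier results of these data known. Members are given with every library when highest per kb in their role, at an unadjusted p under 0.05, or of largest or smallest log2 fold change. Values of Nrxn3, Nlgn3, Slitrk2, Slitrk4, Ntng1, Cbln4 and Cadm3 were added after they were seen. The libraries are separate brains, and p-values measure the spread between them. The standard errors and SDs also measure that spread, whereas the floors for a count of 0 cover counting error only.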

Additional observations from a re-analysis of the deposited data

Results flagged for a closer look

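No member's own normalized count had a GPC6 tumor far from the other 3 by Dixon's criterion for 4 values. Among 82 quantities examined in the GPC6 group (36 members, 15 marker list scores and 31 family shares), 3 did, where chance alone gives about 1 in 20, or 4.1. The Slitrk2 share of the Slitrk total per kb was 6.18% in GPC6 replicate 1 and 19.0% to 20.8% in the other GPC6 tumors, against 18.7% to 25.0% in 3xCR. The Flrt1 share of the FLRT total was 28.1% in GPC6 replicate 3 and 15.6% to 17.2% in the others, with 5.79% to 23.9% in 3xCR. The score of the 6 markers of proliferating cells was -3.28 in GPC6 replicate 1 and 0.44 to 1.11 in the other GPC6 tumors, beside -0.13 to 1.08 in 3xCR, in the library that held the highest value of 26 members.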

How the results depend on the processing

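Over 23 alternatives, 34 of 36 members higher in GPC6 became 26 (without GPC6 replicates 1 and 2 together) to 36. The median log2 fold change of 0.60 ran from 0.38 (without 3xCR replicate 4) to 1.05 (without 3xCR replicate 2) with 1 library left out. Library weights gave 19 members at an unadjusted p under 0.05 in place of 7 and 9 at an adjusted p under 0.05 in place of 0, with 1962 of all genes at the latter and 34.5% at the former, with weights of 8.71 for 3xCR replicate 3, 4.47 for GPC6 replicate 3 and 0.30 to 0.85 for the other libraries, and brought Clstn1, Clstn3 and Lrfn5 to an adjusted p of 0.029 and Nlgn1 to 0.031 in limma. At an unadjusted p under 0.05, edgeR gave 4 members (6.7% of all genes), voom 3 (3.38%) and DESeq2 11 (9.77%). DESeq2 also placed 4 of all genes at an adjusted p under 0.05. The pan-neuronal covariate gave 0 members at the unadjusted value (2.11%), and the fit without GPC6 replicates 1 and 2 together 2 (6.10%). Leaving out 1 library gave 0 (3xCR replicate 4, 0.819% of all genes) to 12 (3xCR replicate 2, 7.67%), with 2 without GPC6 replicate 1 (3.17%) or 3 (2.60%), 3 without 3xCR replicate 3 (2.55%), 6 without GPC6 replicate 2 (9.46%) and 10 without GPC6 replicate 4 (7.84%). Of the partner list, 0 became 1 without a filter (4.55% of all genes), with the covariate (2.11%) or without GPC6 replicates 1 and 2 together (6.10%). It became 18 with library weights (34.5%), 3 with edgeR (6.7%) and 8 with DESeq2 (9.77%). With 1 library left out it ran from 0 to 7. There were 7 without 3xCR replicate 2 (7.67%), 6 without GPC6 replicate 2 (9.46%) and 3 without GPC6 replicate 4 (7.84%). Members without overlap numbered 2 to 14 (14 without 3xCR replicate 2 beside 20.9% of all genes, 9 without GPC6 replicate 4 beside 14.4%, 4 without GPC6 replicate 2 beside 16.1%) and 5 without GPC6 replicates 1 and 2 together (23.6%). Nrxn2 turned to -0.034 with the covariate and to -0.15 without GPC6 replicates 1 and 2 together. Cadm4 turned to 0.045 with the covariate and ranged from -0.38 (without GPC6 replicate 2) to 0.16 (without 3xCR replicate 2) with 1 library left out. The cause of these shifts was not tested.

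Deviations from the group mean of same-numbered replicates had r of -0.19, 0.12 and 0.30 for replicates 2, 3 and 4. Pairs of unlike number ran from -0.46 to 0.50. With so few pairs, whether tumors of the same number shared a batch cannot be told, and the main fit was unpaired. With a replicate block in limma, 7 members (19.4%) and 4.59% of all genes had an unadjusted p under 0.05. In that fit 0 members passed adjustment, 32 were higher and the median log2 fold change was 0.49. Depth limits members with few reads, such as Il1rapl1, Cbln4 and Lrfn5.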
